A study of Mus musculus with 9 samples.

Results

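The 10 genes described here take part in insulin-stimulated glucose uptake. They are Insr, Irs1, Irs2, Pik3r1 and Akt2, which carry the signal from the receptor, Tbc1d4 and Tbc1d1, which act on transporter vesicles, and Slc2a4, Slc2a1 and Hk2, which bring glucose into the cell and trap it there. They were listed by name for these roles, with no threshold on measured values. All 10 were among the 24062 gene symbols of the deposited table, and all 10 were among the 12989 symbols that passed a filter on low counts and were tested.

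Whole gastrocnemius muscle, a hindlimb muscle, was profiled by RNA sequencing in mice of a mixed 129Sve/C57BL/6 background at 3 months of age. The 3 genotypes were wild type (WT), BubR1+/L1002P (hetL1002P) and BubR1+/X753 (hetX753), with 3 libraries each. Both carrier genotypes hold 1 altered allele of Bub1b, the gene of the spindle checkpoint kinase BubR1, of the kind found in mosaic variegated aneuploidy, and no further allele or treatment is named. The labels give no insulin treatment or feeding state, and the values are RNA levels, not protein, phosphorylation or glucose uptake.

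In skeletal muscle, insulin binds its receptor, which phosphorylates insulin receptor substrates. These recruit phosphatidylinositol 3-kinase, whose lipid product activates the kinase AKT. AKT phosphorylates the Rab GTPase-activating proteins TBC1D4 (also called AS160) and TBC1D1, which releases their hold on Rab proteins and lets vesicles loaded with the glucose transporter GLUT4 reach the cell surface. Contraction and the energy sensor AMPK act on the same step, mostly through TBC1D1. Hexokinase 2 then phosphorylates the glucose that has entered.

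Library totals ran from 19768149 to 33977252 counts. The WT libraries held 21, 11 and 16 reads of Bub1b itself, those of hetL1002P 10, 9 and 2, and those of hetX753 8, 8 and 5, so every carrier library was below every WT library. WT 3 (-47.5) and hetL1002P 3 (-32.5) stood apart from the other 7 libraries (-9.52 to 28.8) on the first principal component of all genes, which held 39.7% of the variance. Levels below are in CPM, counts relative to library totals scaled by trimmed mean of M values (TMM), as mean ± SD of 3 libraries, and log2 fold changes are those of edgeR's quasi-likelihood test. A gene is called changed at a Benjamini-Hochberg adjusted p under 0.05 over all 12989 genes.

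Of the 10 genes, Tbc1d4 was the only one called. Its RNA was 3.23-fold lower in hetX753 than in WT and 2.82-fold lower in hetX753 than in hetL1002P. The other 9 genes passed this test in no comparison, among them the transporter genes Slc2a4 and Slc2a1 and the signalling genes Insr, Irs1, Irs2, Pik3r1 and Akt2. The share of all genes called was 0.508% for hetX753 against WT (0.177% lower in hetX753) and 0.115% for hetX753 against hetL1002P (0.0539% lower in hetX753). For hetL1002P against WT it was 0.0%, with no gene of the table called by edgeR, 1034 at an unadjusted p under 0.05, 5 called by DESeq2 and 2 by limma-voom. An edgeR fit of WT and hetL1002P alone with the replicate number as a block called 635 genes, Irs2 among them. Same-numbered libraries of these genotypes deviated together. The libraries that stood apart, WT 3 and hetL1002P 3, share a number, and what a number marks is not known.

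**Figure D1:**
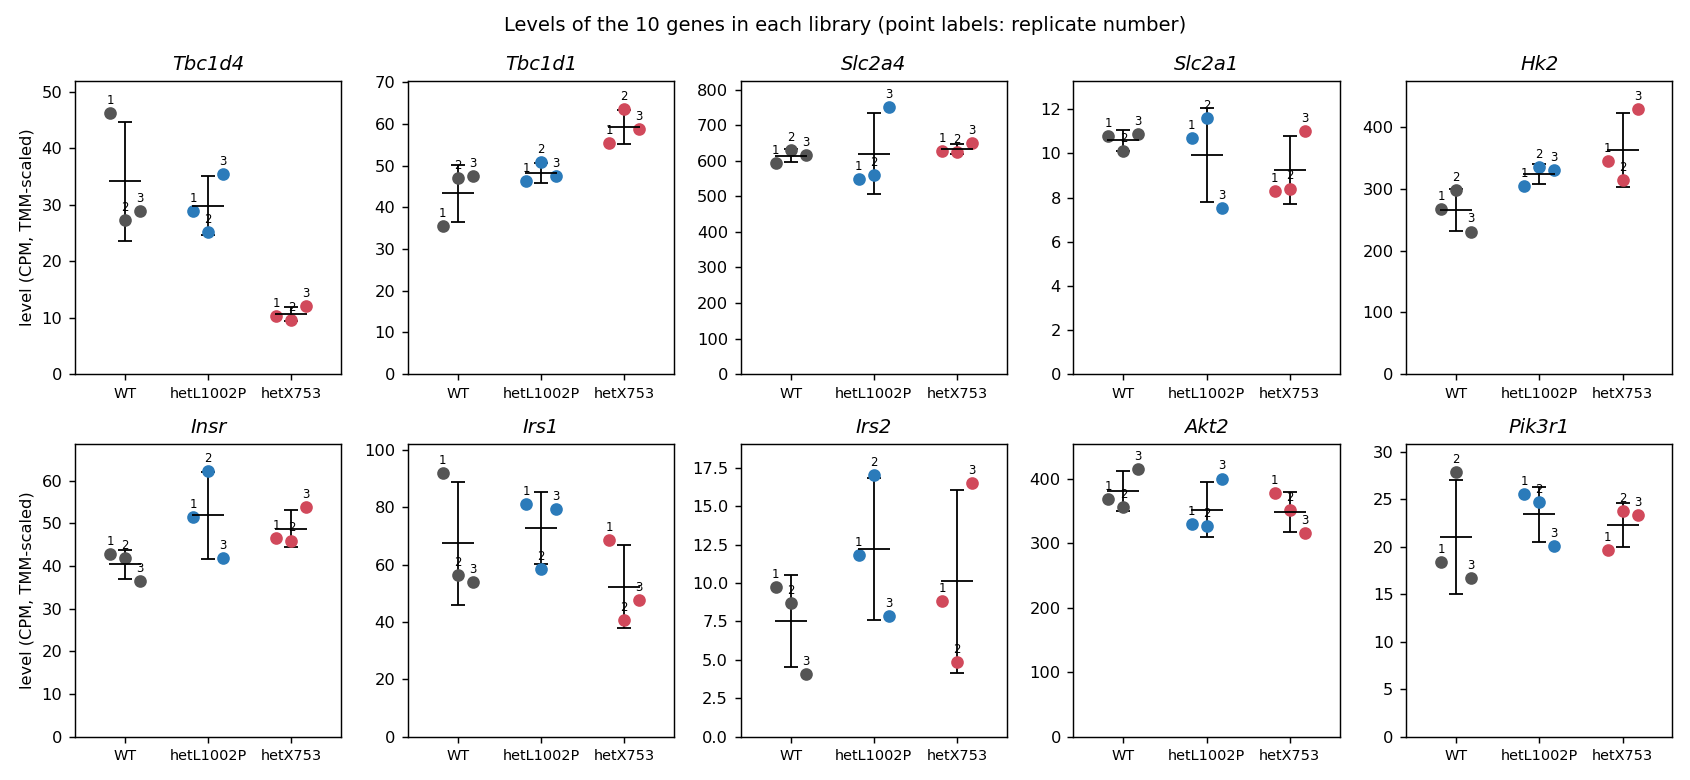
Level of each of the 10 genes (CPM on TMM-scaled library totals, axes from 0) in the 9 libraries, with the genotype on the x axis, the replicate number beside each point, and horizontal bars for the mean ± SD of 3 libraries. The 3 hetX753 libraries of Tbc1d4 lie between 9.63 and 12.0 CPM, below every other library (25.2 to 46.2), while Slc2a4 lies between 549.9 and 751 CPM with the genotypes overlapping.

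Tbc1d4 lies on chromosome 14, at 101442360 to 101609281 on the minus strand (GRCm38.p6, the assembly that mm10 names), and its exons cover 7676 bases. The 160 bases just before its outermost RefSeq start are shown because Tbc1d4 is the gene whose RNA level fell, with CG dinucleotides, the usual sites of DNA methylation, in capitals (RefSeq, GRCm38.p6, chr14:101609282-101609441, minus strand, written 5′ to 3′).

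Tbc1d4: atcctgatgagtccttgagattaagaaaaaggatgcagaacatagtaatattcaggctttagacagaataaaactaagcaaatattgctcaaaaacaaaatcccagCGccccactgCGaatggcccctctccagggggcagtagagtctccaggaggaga

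This stretch holds 2 CG dinucleotides and has a GC content of 44.4%, against medians of 4 and 53.8% over 32851 RefSeq windows of the same length placed just before a start. None of 6 motifs searched on both strands was found in it. They were the E-box CANNTG, present in 49.8% of all windows, the Sp1 box GGGCGG (29.3%), CCAAT (25.6%), the FoxO core TGTTTAC (1.95%), the cAMP response element TGACGTCA (1.39%) and the MEF2 site (0.35%). The count describes these letters in this window and says nothing on binding, and the window was chosen after the gene's levels were known. The window lies before the outermost start alone, and use of that start in muscle was not tested.

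Tbc1d4 had 46.2, 27.3 and 28.8 CPM in the WT libraries (34.1 ± 10.5). In hetL1002P it had 28.8, 25.2 and 35.5 CPM (29.8 ± 5.23). In hetX753 it had 10.2, 9.63 and 12.0 CPM (10.6 ± 1.21). All 3 hetX753 libraries were thus below all 6 others, and WT 1 was the highest of the 9, while WT 2 and WT 3 fell within the hetL1002P range. The counts behind these values ran from 244 to 1563 per library.

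Against WT, Tbc1d4 fell by 1.69 on the log2 scale in hetX753 (SE 0.21, 95% interval -2.17 to -1.22, adjusted p = 0.0168, edgeR), rank 6 of 12989 genes by p. Without WT 1, the highest library, the value was -1.41 with an adjusted p of 0.0504. It was -1.63 (adjusted p = 0.0609) without hetX753 2 and -1.79 (0.0589) without hetX753 3, so the size moved little while the call was lost in those 3 of the 9 fits that leave out 1 library. Leaving out both WT 3 and hetL1002P 3 gave -1.80 (adjusted p = 0.0149).

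Against hetL1002P, Tbc1d4 fell by 1.49 on the log2 scale in hetX753 (SE 0.21, 95% interval -1.97 to -1.02, adjusted p = 0.0355, edgeR), rank 9 by p. This is the direct test that the carrier genotypes differ in Tbc1d4. The call was lost without hetL1002P 1 (adjusted p = 0.123), hetL1002P 2 (0.0532), hetX753 1 (0.0939), hetX753 2 (0.144) or hetX753 3 (0.114), with log2 values of -1.60 to -1.35 over all 9 such fits. It was also lost when library totals were used without TMM scaling (-1.45, adjusted p = 0.0689), and in a fit of the 2 carrier genotypes alone with the replicate block (-1.49, adjusted p = 0.0727).

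For hetL1002P against WT, the Tbc1d4 difference was -0.20 (SE 0.21, 95% interval -0.65 to 0.25, adjusted p = 0.708, edgeR). The interval reaches a ratio of 0.636 at its low end and 1.19 at its high end. With 3 libraries a genotype it thus leaves room for a moderate fall or a small rise. Without WT 1 the value turned to 0.09, and without both WT 3 and hetL1002P 3 it was -0.45 (adjusted p = 0.314).

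**Figure D2:**
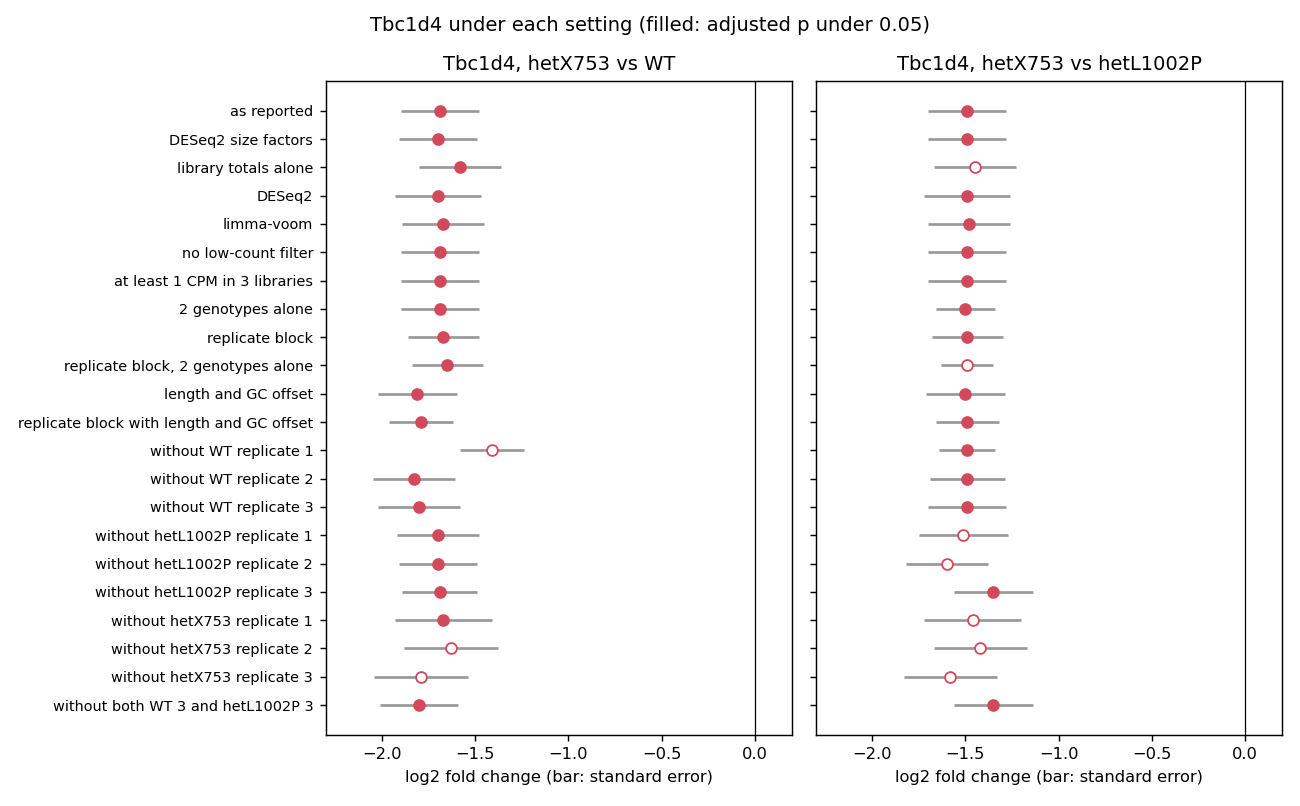
Log2 fold change of Tbc1d4 (x axis, bar for the standard error) in hetX753 against WT and against hetL1002P, as reported and under each of 21 other settings (y axis); filled points have an adjusted p under 0.05. The values stay between -1.83 and -1.41 against WT and between -1.60 and -1.35 against hetL1002P, with 18 and 14 of the 21 past the threshold.

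TBC1D1 is the paralog of TBC1D4 and shares its GTPase-activating domain. Its gene lies on chromosome 5, at 64156305 to 64351486 on the plus strand. Tbc1d1 had 35.5, 47.1 and 47.5 CPM in WT and 46.4, 51.0 and 47.5 CPM in hetL1002P. In hetX753 it had 55.5, 63.7 and 58.8 CPM. The 3 hetX753 libraries lay above all 6 others, the reverse of Tbc1d4, and WT 1, the highest library for Tbc1d4, was the lowest for Tbc1d1.

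This difference did not pass the test. Against WT it was 0.45 (SE 0.13, 95% interval 0.17 to 0.74, adjusted p = 0.127, edgeR), a ratio of 1.37. DESeq2 placed it at 0.44 with an adjusted p of 0.0475, beside 4.93% of all genes called by that tool, the only 1 of 21 other settings that called Tbc1d1. With an offset for length and GC content in each library it was 0.34 (adjusted p = 0.235, edgeR). Without WT 1, the lowest Tbc1d1 library, it was 0.33 (adjusted p = 0.178, edgeR). Against hetL1002P it was 0.30 (95% interval 0.01 to 0.58, adjusted p = 0.581, edgeR), and for hetL1002P against WT it was 0.16 (-0.13 to 0.44, adjusted p = 0.646).

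Per kilobase of exon, a scale that allows levels of different genes to be set side by side, Tbc1d4 made up 55.7%, 35.9% and 36.9% of the summed Tbc1d4 and Tbc1d1 level in WT (42.8 ± 11.2%). The share was 37.4%, 32.3% and 41.9% in hetL1002P (37.2 ± 4.80%). In hetX753 it was 15.1%, 12.7% and 16.4% (14.7 ± 1.86%). The summed level of the pair was 10.3 ± 0.462 CPM per kb in WT, 10.4 ± 0.554 in hetL1002P and 9.39 ± 0.525 in hetX753. In WT 1 the paralogs were near parity with Tbc1d4 ahead, in the other WT and all hetL1002P libraries Tbc1d1 was ahead, and in hetX753 Tbc1d1 made up most of the pair. The share was computed after the levels of both genes had been seen, so it carries no test.

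**Figure D3:**
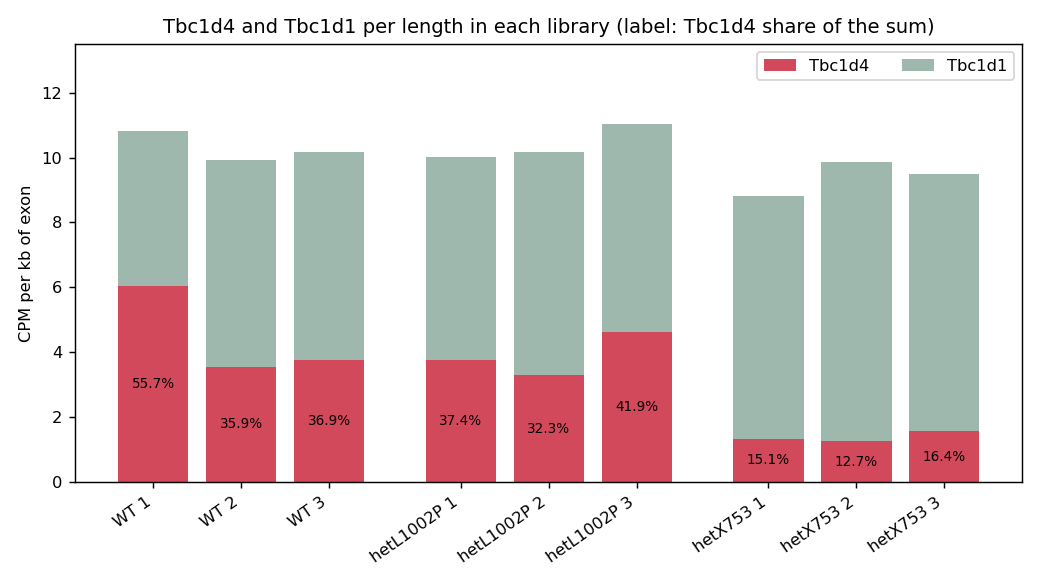
Tbc1d4 and Tbc1d1 in the 9 libraries, as levels in CPM per kb of exon and as the share of Tbc1d4 in their sum (%). The share lies between 12.7% and 16.4% in the hetX753 libraries and between 32.3% and 55.7% in the other 6.

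Glucose transporters come next. Slc2a4 encodes GLUT4, the insulin-responsive transporter whose vesicles TBC1D4 and TBC1D1 hold back, and it had the highest level per kilobase of the 10 genes. It had 594, 631 and 616 CPM in WT and 549.9, 559 and 751 CPM in hetL1002P. In hetX753 it had 627, 624 and 649 CPM. The genotypes overlapped, and hetL1002P 3, 1 of the 2 libraries that stood apart, was the highest of the 9.

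The Slc2a4 difference was 0.04 for hetX753 against WT (SE 0.13, 95% interval -0.24 to 0.33, adjusted p = 0.864, edgeR), which allows ratios from 0.844 to 1.26. It was 0.01 for hetL1002P against WT (-0.27 to 0.30, adjusted p = 0.975) and -0.14 there when hetL1002P 3 and WT 3 were left out. The difference between the carriers was 0.03 (-0.26 to 0.32, adjusted p = 0.978).

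Slc2a1 encodes GLUT1, the transporter of basal uptake, also abundant in endothelium and nerve sheath. It had 10.8, 10.1 and 10.9 CPM in the WT libraries, 10.7, 11.6 and 7.54 CPM in those of hetL1002P, and 8.30, 8.41 and 11.0 CPM in those of hetX753. Its lowest library was hetL1002P 3, and the genotypes overlapped. For hetX753 against WT the difference was -0.20 (95% interval -0.60 to 0.20, adjusted p = 0.531, edgeR). For hetL1002P against WT it was -0.09 (-0.49 to 0.31, adjusted p = 0.849). The annotation places 105 bases of Slc2a1 under a gene on the other strand, and reads of the 2 cannot be told apart without strand.

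Hk2 encodes hexokinase 2, the insulin-regulated muscle hexokinase that turns glucose into glucose 6-phosphate. It had 267, 299 and 231 CPM in WT and 305, 335 and 331 CPM in hetL1002P. In hetX753 it had 346, 314 and 429.7 CPM. Every carrier library was above every WT library, and the carriers overlapped each other. The difference from WT was 0.45 in hetX753 (SE 0.14, 95% interval 0.14 to 0.76, adjusted p = 0.146, edgeR) and 0.28 in hetL1002P (-0.03 to 0.60, adjusted p = 0.580). Neither passed the test in any of the 21 other settings.

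Upstream of these genes stands the insulin receptor, encoded by Insr. It had 42.8, 41.9 and 36.4 CPM in the WT libraries, 51.4, 62.3 and 41.8 CPM in those of hetL1002P, and 46.6, 46.0 and 53.9 CPM in those of hetX753. All hetX753 libraries were above the WT libraries, while hetL1002P 3 lay within the WT range. The difference from WT was 0.27 in hetX753 (95% interval -0.05 to 0.60, adjusted p = 0.307, edgeR) and 0.36 in hetL1002P (0.03 to 0.69, adjusted p = 0.580). Insr has the longest exon sequence of the 10 genes, 13746 bases with a GC content of 46.8%. With an offset for length and GC content in each library, the values were -0.01 and 0.07, so the direction of the hetX753 value was not kept.

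The insulin receptor substrates IRS1 and IRS2 are the docking proteins that the receptor phosphorylates. Irs1 had 91.9, 56.3 and 53.9 CPM in the WT libraries, 81.0, 58.4 and 79.5 CPM in those of hetL1002P, and 68.7, 40.8 and 47.8 CPM in those of hetX753. The highest Irs1 library was WT 1, as for Tbc1d4. The difference of hetX753 from WT was -0.36 (95% interval -0.90 to 0.17, adjusted p = 0.395, edgeR) and from hetL1002P -0.48 (-1.01 to 0.06, adjusted p = 0.684). Without WT 1 the difference from WT was -0.07 (adjusted p = 0.873). For hetL1002P against WT it was 0.11 (-0.42 to 0.65, adjusted p = 0.863), a value that turned to -0.03 with the length and GC offset. A gene on the other strand overlaps 2822 bases of Irs1, and its reads could be counted with it.

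Irs2, whose RNA is known to be lowered by insulin, was the lowest of the 10 per kilobase in WT and had the largest coefficient of variation of the 10 in each genotype. It had 9.71, 8.72 and 4.11 CPM in the WT libraries, 11.8, 17.0 and 7.83 CPM in those of hetL1002P, and 8.84, 4.85 and 16.5 CPM in those of hetX753. Its coefficient of variation was 39.8%, 37.6% and 58.9% in the 3 genotypes, and the ranges overlapped. The difference from WT was 0.70 in hetL1002P (95% interval -0.28 to 1.67, adjusted p = 0.586, edgeR), and 0.41 in hetX753 (-0.57 to 1.39, adjusted p = 0.610). Without hetX753 3 the latter was -0.14, and without both WT 3 and hetL1002P 3 it was 0.12. In a fit of WT and hetL1002P alone with the replicate number as a block, Irs2 was called at 0.70 (adjusted p = 0.039), beside 5.01% of all genes in that fit.

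Pik3r1 encodes the p85α regulatory subunit of phosphatidylinositol 3-kinase. It had 18.4, 27.9 and 16.7 CPM in the WT libraries, 25.5, 24.7 and 20.1 CPM in those of hetL1002P, and 19.6, 23.8 and 23.3 CPM in those of hetX753, with overlapping ranges. The difference from WT was 0.09 in hetX753 (95% interval -0.33 to 0.50, adjusted p = 0.816, edgeR) and 0.16 in hetL1002P (-0.25 to 0.58, adjusted p = 0.736). With the length and GC offset they were -0.13 and -0.06.

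Akt2 encodes the AKT kinase most tied to insulin action on glucose, and in WT it ranked below Slc2a4 alone in level per kilobase. It had 369, 356 and 415 CPM in the WT libraries, 329, 326 and 400.0 CPM in those of hetL1002P, and 377, 351 and 315 CPM in those of hetX753. The ranges overlapped. The difference from WT was -0.13 in hetX753 (95% interval -0.41 to 0.15, adjusted p = 0.556, edgeR) and -0.11 in hetL1002P (-0.39 to 0.16, adjusted p = 0.724).

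**Figure D4:**
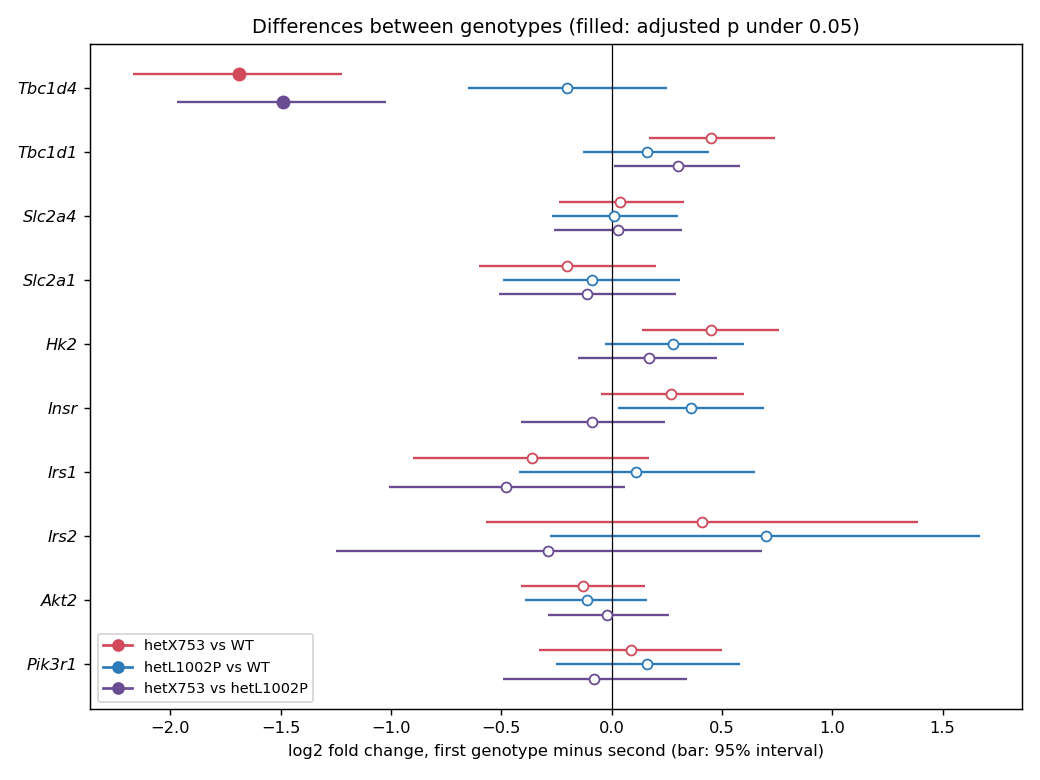
Log2 fold change of each of the 10 genes (x axis, bars for the 95% interval) in the 3 comparisons of genotypes, as fitted by edgeR. Tbc1d4 lies at -1.69 for hetX753 against WT and at -1.49 against hetL1002P, the other 9 genes lie between -0.48 and 0.70 in all 3.

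In level per kilobase of exon, the order in WT was Slc2a4 at 177 ± 5.42 CPM per kb, Akt2 at 53.3 ± 4.36 and Hk2 at 44.5 ± 5.69, then a wide step to Irs1 at 7.37 ± 2.32, Tbc1d1 at 5.86 ± 0.922 and Tbc1d4 at 4.45 ± 1.37. Slc2a1 followed at 3.03 ± 0.134, Insr at 2.94 ± 0.252, Pik3r1 at 2.08 ± 0.596 and Irs2 at 1.19 ± 0.473. Akt2 and Hk2 overlapped in range, as did neighbours from Irs1 to Tbc1d4 and from Slc2a1 to Pik3r1. In hetX753, Tbc1d4 moved to 1.38 ± 0.158 CPM per kb and was then the lowest of the 10 by mean, within the range of Irs2 (0.768 to 2.61).

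Non-overlap of the libraries was common in the whole table. For hetX753 against WT, 4 of the 10 genes had no overlap (Tbc1d4 lower, Tbc1d1, Hk2 and Insr higher), beside 32.5% of all genes, so this count is close to the background. For hetL1002P against WT it was 1 of 10, Hk2, beside 9.44%, and for hetX753 against hetL1002P 2 of 10, Tbc1d4 and Tbc1d1, beside 14.4%. The median log2 difference of the 10 genes was 0.07, 0.13 and -0.08 in these comparisons, and that of all genes 0.00, 0.01 and -0.01. The comparisons share their WT or carrier libraries and are not independent.

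Across the 9 libraries, the log2 level of Tbc1d1 had a Pearson r of -0.91 with that of Tbc1d4, a description of libraries that share their genotype and scaling. Irs1 had 0.69 and Hk2 -0.57, and the other 6 genes lay between -0.29 and 0.31. Among 11109 genes averaging at least 1 CPM, those most like Tbc1d4 were Ankmy2, Cpsf3 and Ccdc43 (r = 0.96) and Gfm1 and Ccdc25 (0.95). Among the most opposite were Pyroxd2 (-0.96) and Supt5 (-0.95). Of the genes named here, Ccdc43 fell by 0.62 in hetX753 against WT (adjusted p = 0.033, edgeR) and Pyroxd2 rose by 2.36 (adjusted p = 0.0327), beside 0.508% of all genes called. Both were picked by their r with Tbc1d4 over the same 9 libraries, so their calls are no independent evidence. Each of these 2 calls was lost when any 1 of the WT libraries, hetL1002P 1, hetX753 2 or hetX753 3 was left out.

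The genes beside Tbc1d4 on chromosome 14 were read after its change was seen. Commd6, whose span starts 24.5 kb from Tbc1d4, had 4.13 CPM on average in hetX753 and 5.80 in WT, a log2 difference of -0.48 (95% interval -0.94 to -0.02, adjusted p = 0.229, edgeR). Uchl3, at 44.6 kb, had -0.13 (adjusted p = 0.680), and Lmo7, at 121 kb, had 0.29 (adjusted p = 0.382). On the other side the nearest tested genes were Klf12, at 1156 kb with 0.66 (adjusted p = 0.318), Klf5 with 0.58 (0.443) and Pibf1 with 0.23 (0.393). None of the 6 neighbours was called, and 2 of them, Commd6 and Uchl3, had a value below 0, of which Uchl3 turned to 0.01 without WT 3.

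The wider pathway was read from 5 lists of known parts, without the 10 genes. The count called by edgeR was 0 in every list and in all 3 comparisons, in both directions, and it was 0 with limma-voom as well. In hetX753 against WT, an unadjusted p under 0.05 was met by 5 of 20 genes from the receptor to AKT, 4 of 27 of GLUT4 vesicle traffic, 3 of 16 of glucose entry and glycogen, 3 of 11 of the AMPK arm and 4 of 12 regulators of transcription, beside 20.9% of all genes. DESeq2 called Mtor, Prkag2, Foxo4 and Srebf1 in that comparison, beside 4.93% of all genes, and Foxo4 in hetX753 against hetL1002P, beside 1.06%. Without hetL1002P 3, edgeR called Prkag2 (-0.59, adjusted p = 0.0322) and Foxo4 (0.37, 0.0424), among the genes described below, in hetX753 against WT. That fit called 669 of 13195 genes in this comparison, against 66 of 12989 with all libraries.

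Between the receptor and AKT, 14 of 20 genes were above 0 and 6 below in hetX753 against WT, with a median of 0.06. Mtor, the kinase of complexes that act on and below AKT, had 37.5, 31.2 and 24.5 CPM in WT and 46.7, 40.8 and 55.0 in hetX753, a difference of 0.61 (adjusted p = 0.123, edgeR). Pdpk1, which activates AKT, had 0.48 (adjusted p = 0.162). In hetL1002P against WT the list's median was 0.15.

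Of the genes of GLUT4 vesicle traffic, 13 of 27 were above 0 and 14 below, with a median of -0.03 (-0.06 in hetL1002P). Sec16a, a coat protein organiser at exit sites of the endoplasmic reticulum, had a difference of 0.45 (adjusted p = 0.200, edgeR). Snap23, a membrane fusion protein, had 0.39 (0.232). Ralgapa1, a subunit of the GTPase-activating complex for RalA, had 0.32 (0.201), which became 0.03 with the length and GC offset.

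In glucose entry and glycogen, 7 of 16 genes were above 0 and 9 below, with a median of -0.12 that became 0.00 with the length and GC offset. Slc2a3, which encodes the transporter GLUT3, had 15.9, 12.9 and 14.8 CPM in WT and 12.3, 6.35 and 5.86 in hetX753, a difference of -0.83 (adjusted p = 0.162, edgeR). Slc2a12, a further transporter gene, had 0.48 (adjusted p = 0.138). Ppp1r3a, which brings protein phosphatase 1 to glycogen, had 0.46 (0.211), and 0.24 with the offset.

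The AMPK arm had 6 of 11 genes above 0 and 5 below, with a median of 0.04. Its subunit genes did not share a direction. Prkag2, a regulatory γ subunit, had 12.4, 10.9 and 13.1 CPM in WT and 8.30, 8.01 and 7.80 in hetX753, a difference of -0.59 (adjusted p = 0.133, edgeR). Prkab2, a β subunit, had 0.58 (adjusted p = 0.149), and Prkaa2, the main catalytic subunit gene of muscle, had 0.33 (0.202), or 0.12 with the offset.

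Among regulators known to act on Slc2a4 or Irs2 transcription, 10 of 12 were above 0 and 2 below, with a median of 0.21 in hetX753 against WT and 0.00 in hetL1002P against WT. Foxo4, a FoxO factor that AKT excludes from the nucleus, had 202, 191 and 196 CPM in WT and 253, 250 and 258 in hetX753. Its libraries did not overlap, as in 32.5% of all genes, at a difference of 0.37 (SE 0.10, adjusted p = 0.118, edgeR). Srebf1, the lipogenic factor SREBP1, had 132, 99.8 and 77.4 CPM in WT and 75.1, 61.7 and 70.6 in hetX753, a difference of -0.58 (adjusted p = 0.134). Without both WT 3 and hetL1002P 3, Foxo4 was called at 0.37 (adjusted p = 0.0416) and Srebf1 at -0.74 (0.0255). That fit called 340 of 13156 genes in hetX753 against WT, against 66 of 12989 with all libraries. Nr4a3, a nuclear receptor induced by exercise, had 1.33 (adjusted p = 0.190), at levels of 2.08 CPM or less.

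**Figure D5:**
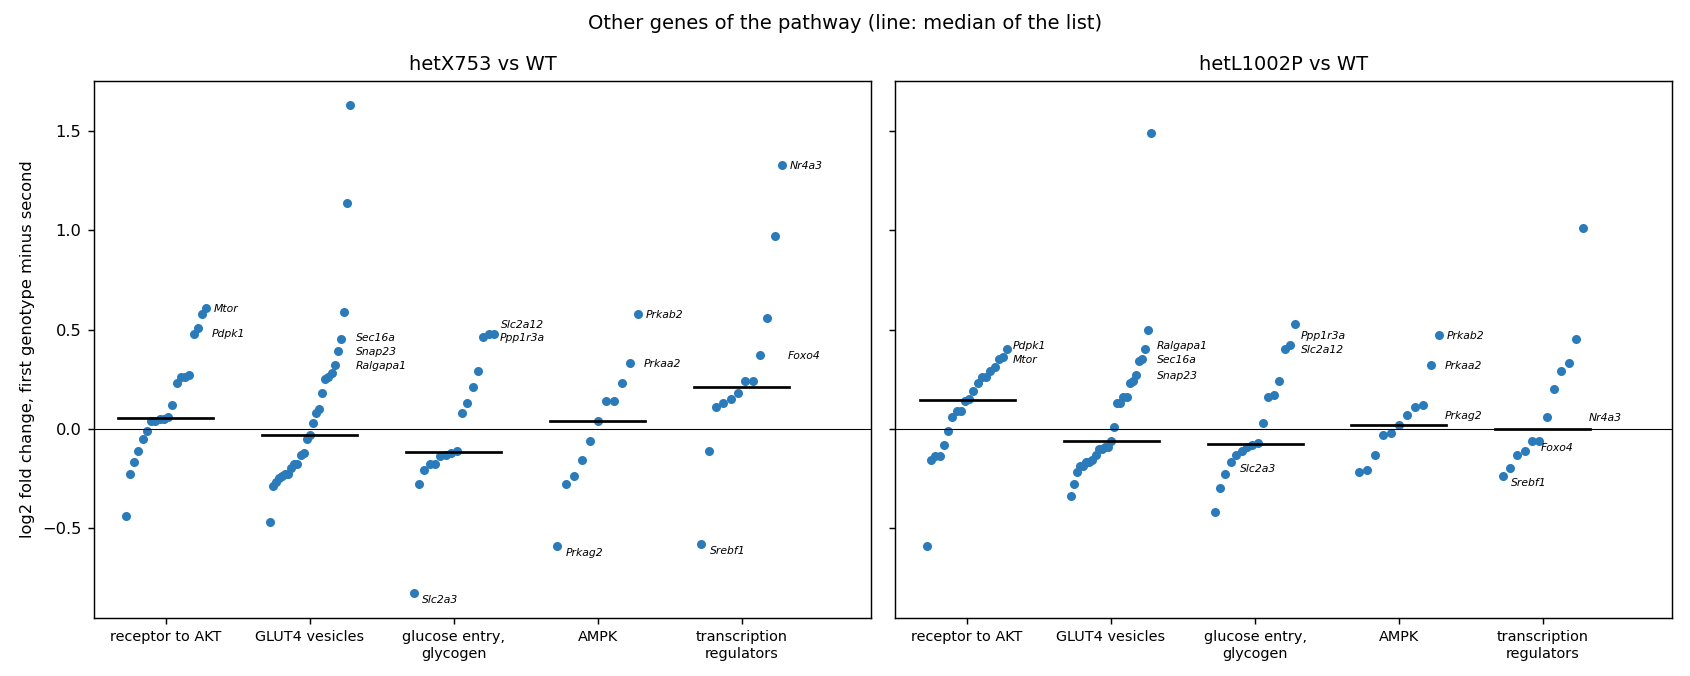
Log2 fold change (y axis) of the genes in the 5 pathway lists (x axis), without the 10 genes, for hetX753 and hetL1002P against WT; each point is a gene, the black line is the median of the list, and the genes described in the text are named. No gene shown passed the edgeR test, and the medians lie between -0.12 and 0.21.

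Because whole muscle was sequenced, fewer cells of a type and less RNA per cell cannot be told apart. The summed level of 12 muscle fibre markers was 202076 to 217080 CPM in WT, 179601 to 200343 in hetL1002P and 167339 to 183251 in hetX753. The tissue label was thus borne out in every library, and the WT sums lay above those of both carriers without overlap. Among single genes, non-overlap with WT was found in 32.5% for hetX753 and 9.44% for hetL1002P. The sum rests mostly on the most abundant markers, such as Myh4 (52875 CPM on average in WT) and Acta1 (51554 CPM). The 12 genes did not share a direction, with 5 above 0 and 7 below in hetX753 against WT. In hetL1002P against WT, 6 were above 0 and 6 below. In hetX753 against hetL1002P, 4 were above 0 and 8 below. There 2 of the 12 met an unadjusted p under 0.05 (edgeR), beside 1070 of 12989 genes. They were the fibre-type markers Myh2 at -0.77 (adjusted p = 0.368, edgeR) and Actn3 at 0.32 (0.444). The part of the summed level or of these markers in the Tbc1d4 result was not tested. Adipocyte markers (8 genes) summed to 303 to 478, 202 to 243 and 241 to 496 CPM, and endothelial markers (8 genes) to 243 to 283, 211 to 274 and 255 to 268 CPM. Schwann cell and nerve markers (7 genes) summed to 120.1 to 228, 165 to 228 and 159 to 190.5 CPM, with the genotypes overlapping.

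All 7 fibroblast markers and all 7 measured macrophage markers were below 0 in hetX753 against WT, with medians of -0.44 and -0.32. In hetX753 against hetL1002P, where Tbc1d4 was also called, the medians were -0.58 for fibroblast, -0.37 for macrophage and 0.49 for adipocyte markers. In hetL1002P against WT all 8 adipocyte markers were below 0 (median -0.49), and the fibroblast and macrophage medians were 0.12 and 0.00. Fibroblast markers summed to 811 to 947 CPM in WT, 519 to 1207 in hetL1002P and 568 to 726 in hetX753, and macrophage markers to 66.3 to 109, 63.6 to 122 and 71.6 to 72.6. Their part in the Tbc1d4 result was not tested. The 7 erythroid genes summed to at most 12.0 CPM in any library, with Hba-a1, Hba-a2, Hbb-bs and Hbb-bt listed at 0 in all 9. The sum thus rests on the remaining erythroid genes, of which 1 was tested, and does not gauge blood content. No marker of the 7 lists was called by edgeR or limma-voom. DESeq2 called Acta1 and Pcolce in hetX753 against WT, beside 4.93% of all genes, and Actn3 in hetX753 against hetL1002P, beside 1.06%. In hetX753 against WT, 4 muscle fibre, 3 adipocyte, 2 macrophage and 2 fibroblast markers met an unadjusted p under 0.05 (edgeR), beside 20.9% of all genes.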

How the data were processed

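The authors deposited a table of raw read counts, with gene symbols as rows and the 9 libraries as columns. Libraries were made with the TruSeq RNA v2 kit, per the labels' protocols, a kit that does not mark strand. Build mm10 and the tools featureCounts 1.4.6, Subread, Bowtie2 2.2.6 and TopHat2 2.0.14 are listed in the submitters' processing notes, without their roles. The annotation is not given in the sources used here, nor is the strand setting. The labels do not say that libraries came from separate animals, so the spread that p-values rest on may be technical. Libraries of 1 genotype always differed by more than sampling noise (chi-square of 14.3 or more per degree of freedom).

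Genes were kept by filterByExpr (12989 of 24062), scaled by TMM and fitted with edgeR 4.0.16 (R 4.3.3, robust quasi-likelihood, genotype as the only term, all 9 libraries); intervals use its standard error and degrees of freedom. The script was tested on simulated counts that held no outlier libraries and no deviations shared between libraries, so that test does not cover these. The 10 genes, the lists and the tests were chosen with earlier results of these data known. Described are the 10 genes, each pathway list's genes past the threshold plus its 3 with the smallest p in hetX753 against WT, and the 5 genes most and 3 least like Tbc1d4; some genes that the rule names are not reported here. Exon lengths and GC content come from GENCODE M21 (94.55% of symbols matched), positions and the sequence from RefSeq GRCm38.p6.

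The titles number the replicates without saying what a number marks. Same-numbered WT and hetL1002P libraries deviated together (r = 0.285, 0.36 and 0.516). Each genotype was centred on its own 3 libraries, so these values are not independent of each other. WT 3 and hetL1002P 3, which stood apart, share a number. Among differently numbered pairs, hetL1002P 2 with WT 1 had 0.198 and hetL1002P 1 with WT 2 had 0.0558. The others had -0.454 to -0.279. Same-numbered pairs with hetX753 did not deviate together (-0.279 to 0.164). The 21 alternatives were other scalings, DESeq2 1.42.0, limma-voom (limma 3.58.1, with robust moderation chosen after a first run, the count of calls staying the same), other filters, fits of 2 genotypes alone, the replicate block, an offset for length and GC (mgcv 1.9.3), and leaving out libraries.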

Additional observations from a re-analysis of the deposited data

Results flagged for a closer look

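The carriers' Tbc1d4 values against WT differed from each other in the direct test. The log2 difference of hetX753 from hetL1002P was -1.49 (SE 0.21, adjusted p = 0.0355, edgeR), and the effects against WT were -1.69 in hetX753 and -0.20 in hetL1002P. All 3 hetX753 libraries (9.63 to 12.0 CPM) were below all 3 hetL1002P libraries (25.2 to 35.5 CPM). Over 21 other settings the difference lay between -1.60 and -1.35, with an adjusted p under 0.05 in 14.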

How the results depend on the processing

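Of 630 recomputed values of the 10 genes (21 alternatives, 3 comparisons), 584 kept their direction and side of the threshold, 10 lost the call, 2 gained it and 34 changed sign; none of those that changed sign was called. All 10 lost calls are of Tbc1d4, the only gene of the 10 called as reported, so no other could lose a call. The cause of these losses was not tested.

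For hetX753 against WT, 66 genes were called, against 31 with library totals alone, 640 with DESeq2, 254 with the 2 genotypes alone, 340 without both WT 3 and hetL1002P 3, and 0 to 669 without 1 library (0 without WT 1, 669 without hetL1002P 3). For hetL1002P against WT the 0 became 5 with DESeq2, 2 with limma-voom, 2 with no low-count filter, 1 with the length and GC offset, 2 without both libraries and 0 to 1 without 1 library. For hetX753 against hetL1002P the 15 became 138 with DESeq2, 38 with no filter, 5 with the 2 genotypes alone, 37 with the offset, 95 without both libraries and 0 to 19 without 1 library. Of the 10 genes, DESeq2 called 2 in hetX753 against WT, and library totals alone called 0 in hetX753 against hetL1002P; both counts ran from 0 to 1 without 1 library. Library totals alone moved the median of all genes to 0.12 in hetX753 and 0.10 in hetL1002P against WT.

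With the replicate block, 31 genes were called in hetX753 against hetL1002P. With the block on the 2 genotypes alone the counts were 106, 635 (WT and hetL1002P, the pairs whose numbers deviated together) and 2, with 1 of the 10 genes called in hetL1002P against WT and 0 in hetX753 against hetL1002P. There Tbc1d4 had -1.49 (adjusted p = 0.0727), and Slc2a4 turned to -0.01 in hetL1002P against WT. With the block and the offset the counts were 116, 1 and 45. The block changed no other call of the 10 genes than those of Tbc1d4 and Irs2.

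Signs also changed as follows. In hetX753 against WT the offset, without and with the block, gave Insr -0.01 and -0.01, Pik3r1 -0.13 and -0.12, and Pibf1 -0.02 and -0.02, and in hetL1002P against WT Irs1 -0.03 and -0.01 and Pik3r1 -0.06 and -0.04. Library totals alone gave Slc2a1 0.01 in hetL1002P against WT and Akt2 0.02 in hetX753 against hetL1002P. Without both WT 3 and hetL1002P 3, Pik3r1 had -0.05 and Uchl3 0.01 in hetX753 against WT, Slc2a4 -0.14, Slc2a1 0.09 and Irs1 -0.09 in hetL1002P against WT, and Akt2 0.08 in hetX753 against hetL1002P.

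Without 1 library, the values that crossed 0 ranged as follows. In hetX753 against WT they were Irs2 from -0.14 to 0.74, Pik3r1 from -0.05 to 0.34 and Uchl3 from -0.23 to 0.01. In hetL1002P against WT they were Tbc1d4 from -0.35 to 0.09, Slc2a4 from -0.15 to 0.08, Slc2a1 from -0.23 to 0.07 and Irs1 from -0.03 to 0.40. In hetX753 against hetL1002P they were Slc2a4 from -0.04 to 0.19, Slc2a1 from -0.27 to 0.02, Insr from -0.22 to 0.07, Irs2 from -0.83 to 0.05, Akt2 from -0.07 to 0.09 and Pik3r1 from -0.17 to 0.01.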
